A study of Homo sapiens with 8 samples.

Results

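The forebrain and eye field factors examined here are 9 transcription factor genes, SIX3, SIX6, HESX1, LHX2, LHX5, RAX, FEZF1, FEZF2 and EMX2. They were chosen by gene symbol, and all 9 are among the 35940 gene symbols of the table. ESI017, an established line of human embryonic stem cells with a wild type genotype, was switched from the maintenance medium mTeSR1 to the serum-free medium N2B27 with the compounds SB and LDN, which every library shares, a course labelled as differentiation to a posterior neural fate. Recombinant WNT3A was given at 34 h of differentiation, and poly(A) RNA was sequenced at 34, 42, 50 and 72 h in 2 libraries per time point. The 34 h libraries were collected at the hour of its addition, and a course without WNT3A was not analysed here, so time in the medium and WNT3A cannot be told apart in any comparison with 34 h.

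These genes pattern the front of the neural plate. SIX3, SIX6 and RAX are homeobox factors of the eye field and the anterior midline, HESX1 is a homeobox repressor of the anterior neural ectoderm that is also expressed in pluripotent cells, and LHX2 and LHX5 are LIM homeobox factors of the eye field, cortex and diencephalon. FEZF1 and FEZF2 are zinc finger repressors of the prospective forebrain, and EMX2 is a homeobox factor of the cortex. WNT signals are a known caudalizing influence on the neural plate, and SIX3 and HESX1 are known from mouse mutants as genes that keep WNT activity out of the prospective forebrain.

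Values are TPM, a measure of transcript abundance that is scaled by transcript length and sums to the same total in each library, so levels can be compared between genes. Libraries of 1 time point had Spearman correlations of 0.980 to 0.984 over the tested genes, against 0.933 to 0.982 between time points, and 13860 to 14004 symbols per library reached 1 TPM. The read depth behind these values is unknown. The stem cell and neural progenitor genes POU5F1 and SOX2 were at 354 TPM or more and 168 TPM or more in every library. WNT target genes checked the labels: AXIN2 had 20.6 and 15.7 TPM at 34 h and between 63.9 and 101 TPM in the 6 libraries with WNT3A.

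Of the 9 genes, 4 reached 1 TPM in at least 2 of the 8 libraries and were tested, FEZF1, LHX5, HESX1 and LHX2. They held 98.8% to 99.7% of the summed TPM of the 9 genes in a library. FEZF1, LHX5 and HESX1 were above 1 TPM in every library, while LHX2 was above it in the 42 h and 50 h libraries and below it in the others, so LHX2 entered the test through the time points at which it was high. The sum of the 9 genes was 98.1 and 78.9 at 34 h, 42.9 and 51.0 at 42 h, 37.3 and 46.8 at 50 h, and at 72 h 29.1 and 35.4 TPM, and the 34 h libraries did not overlap with any later one. In bulk RNA fewer cells that express a gene and less RNA per cell cannot be told apart.

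SIX3, SIX6, RAX, FEZF2 and EMX2 were at or close to 0. SIX3 ranged from 0.105 to 0.644 TPM, with 0.644 and 0.387 TPM at 34 h and at 72 h 0.338 and 0.172 TPM, and the 34 h libraries overlapped with those of 42 h but lay above those of 50 h and 72 h. RAX did not exceed 0.15 TPM and was listed at 0 in 3 libraries, both of 72 h and 1 of 50 h. SIX6 was listed at 0 in 7 libraries and had 0.0507 TPM in the other. FEZF2 had 0.182 and 0.190 at 34 h, at most 0.0516 TPM later, and was listed at 0 in 4 libraries. EMX2 was listed at 0 in all 8 libraries. None of these 5 genes passed the filter; in the alternative without it FEZF2 was called at 72 h against 34 h.

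**Figure D1:**
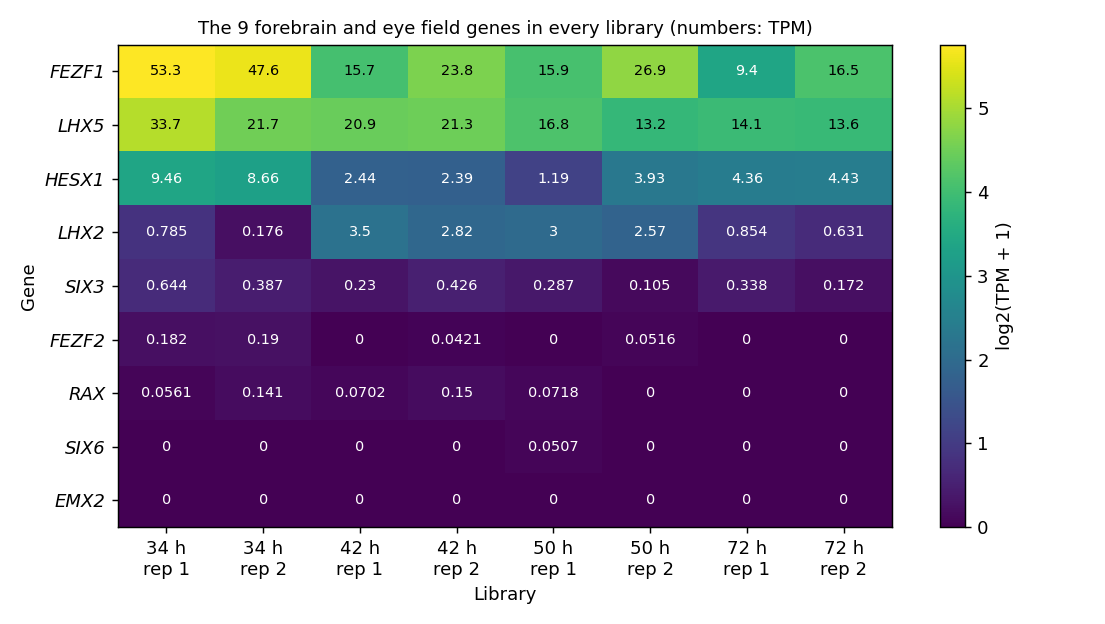
Level of the 9 genes (rows) in each of the 8 libraries (columns, by time point and replicate), with the TPM written in each cell and the colour giving log2(TPM + 1). FEZF1 and LHX5 stand above the other genes in every library, LHX2 is above 1 TPM at 42 h and 50 h alone, and the 5 lower rows stay under 1 TPM.

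The sequence before the start of 3 of the tested genes is shown because these starts differ in base composition and in homeodomain letters. RefSeq windows of 250 bases before a gene start (GRCh38.p14) were found for 6 of the 9 genes, 8 windows in all, since HESX1 and FEZF1 have 2 starts each. SIX3, LHX5 and FEZF2 had no entry. The printed stretches exclude bases that GENCODE release 29 places in exons of the gene itself, and run 5′ to 3′ on the strand of the gene. The downstream HESX1 start and both FEZF1 starts lie inside the span of their gene in that annotation, as does the LHX2 start, and 51 bases of the FEZF1 window lie in an exon of the antisense gene FEZF1-AS1. Capitals mark matches to TAATTA, a core bound by many homeodomain proteins, LIM homeodomain factors among them.
HESX1, chr3:57200029-57200228, minus strand, 250 to 51 bases before the downstream start: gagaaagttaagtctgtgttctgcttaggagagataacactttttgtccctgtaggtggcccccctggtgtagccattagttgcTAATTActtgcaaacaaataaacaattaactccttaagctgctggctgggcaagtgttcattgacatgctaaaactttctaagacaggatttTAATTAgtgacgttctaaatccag
FEZF1, chr7:122304751-122305000, minus strand, 250 to 1 bases before the upstream start: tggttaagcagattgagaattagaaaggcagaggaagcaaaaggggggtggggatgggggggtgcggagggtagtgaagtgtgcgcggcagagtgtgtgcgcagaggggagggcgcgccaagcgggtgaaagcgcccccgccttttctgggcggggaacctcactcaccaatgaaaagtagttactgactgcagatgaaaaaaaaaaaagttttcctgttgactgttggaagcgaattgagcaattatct
LHX2, chr9:124011518-124011609, plus strand, 250 to 159 bases before the start: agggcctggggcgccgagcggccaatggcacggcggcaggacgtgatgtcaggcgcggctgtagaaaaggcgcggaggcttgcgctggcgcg
In the whole windows of 250 bases, G and C made up 43.6% at the downstream HESX1 start with 2 CpG, 52.8% at the upstream FEZF1 start with 11 CpG, and 70.4% at LHX2 with 25 CpG, against medians of 58.0% and 11 CpG over all 35116 windows of the same table. The window at the other HESX1 start had 79.2% and 35 CpG, and 140 of its bases lie in exons of the neighbouring gene APPL1. TAATTA, which reads the same on both strands, was present 2 times before the downstream HESX1 start and 1 time in the EMX2 window, and 4.35% of all windows held it. All 250 bases of the EMX2 window lie in EMX2 exons in GENCODE release 29. For TCF/LEF factors, which carry the WNT response, the letters CTTTGAT were sought on either strand, and so was the variant that ends in GAA instead, CTTTGAA. Neither of them was in the HESX1, FEZF1 or LHX2 windows. The former was present in the SIX6 window, within the 195 bases of it that lie in SIX6 exons in that release. At least 1 of them was held by 5.94% of all windows. TAATCC, the core of OTX-type homeodomain sites, was in none of the 8 windows and in 5.62% of all windows, on either strand. TAATTA and TAATCC share the letters TAAT. A match or its absence in such a window is a description and not a binding measurement.

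FEZF1 (ENSG00000128610, chromosome 7, 122301394 to 122310691, minus strand, GRCh38, protein coding), a zinc finger repressor that helps to set the forebrain apart from its caudal neighbours, was the gene with the highest level of the 9 at 34 h. FEZF1 had 53.3 and 47.6 at 34 h, 15.7 and 23.8 at 42 h, 15.9 and 26.9 at 50 h, and at 72 h 9.41 and 16.5 TPM. Both 34 h libraries lay above all later libraries, and the 42 h, 50 h and 72 h libraries overlapped. The mean went from 50.5 ± 3.99 TPM (SD, n = 2) at 34 h to 13.0 ± 5.04 TPM at 72 h, a fall of 3.89-fold. On the log2(TPM + 1) scale, which understates the change of low genes, FEZF1 fell by 1.93 ± 0.32 (SE) from 34 h to 72 h (limma adjusted p 0.00362), with -2.38 within replicate 1 and -1.47 within replicate 2. This call held under all 16 alternatives run, with limma adjusted p-values from 0.00100 to 0.0296.

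The earlier differences of FEZF1 were of similar direction but less certain. At 42 h FEZF1 was 1.34 ± 0.32 below 34 h in log2 units (limma adjusted p 0.0821) and at 50 h 1.24 ± 0.32 below (0.0599). With the replicate number as a block these passed, with limma adjusted p-values of 0.0243 and 0.019. The 2 replicates of FEZF1 stood apart more than those of most genes: their SD over the time points, 0.425 on the log2 scale, was higher than in 91.2% of tested genes, where the median gene had 0.169. Replicate 1 was lower than replicate 2 by 0.57, 0.73 and 0.75 on the log2 scale at 42, 50 and 72 h, but 0.16 higher at 34 h. Between 42 h and 50 h (0.09 ± 0.32, limma adjusted p 0.961) and between 50 h and 72 h (-0.69 ± 0.32, 0.250) no difference of FEZF1 passed.

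LHX5 (ENSG00000089116, chromosome 12, 113462034 to 113472280, minus strand, protein coding), a LIM homeobox factor of the anterior neural plate and diencephalon, came down in smaller steps. LHX5 had 33.7 and 21.7 at 34 h, 20.9 and 21.3 at 42 h, 16.8 and 13.2 at 50 h, and at 72 h 14.1 and 13.6 TPM. The 34 h replicates differed by 0.61 on the log2 scale, with the 34 h libraries above all later ones and those of 50 h and 72 h overlapping. The mean at 34 h was 27.7 ± 8.46 TPM (SD, n = 2), and at 72 h it was 13.9 ± 0.351 TPM, 1.99-fold lower. From 34 h to 72 h LHX5 fell by 0.91 ± 0.21 in log2 units (limma adjusted p 0.0146; -1.20 in replicate 1, -0.63 in replicate 2). That call was lost without replicate 1 at 34 h, where the change was -0.61 (limma adjusted p 0.0694), and without the one or the other 72 h library (0.0689 and 0.0783). The change at 42 h was -0.34 ± 0.21 (limma adjusted p 0.555). The change at 50 h was -0.82 ± 0.21 (0.0566), past the threshold with the replicate block (0.0377) and after rescaling the libraries by a trimmed mean of log ratios (0.0386).

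HESX1 (ENSG00000163666, chromosome 3, 57197838 to 57227606, minus strand, protein coding), the homeobox repressor, was lowest in the middle of the course. HESX1 had 9.46 and 8.66 at 34 h, 2.44 and 2.39 at 42 h, 1.19 and 3.93 at 50 h, and at 72 h 4.36 and 4.43 TPM. The 34 h, 42 h and 72 h libraries did not overlap with each other, and the replicates at 50 h differed by 1.17 on the log2 scale, more than at any other time point. The 34 h mean of 9.06 ± 0.565 TPM (SD, n = 2) compares with 2.41 ± 0.0320 TPM for the 42 h libraries and 4.39 ± 0.0460 TPM for those of 72 h. At 50 h HESX1 was 1.61 ± 0.34 below 34 h on the log2 scale and was called lowered (limma adjusted p 0.0275; -2.26 in replicate 1, -0.97 in replicate 2). This call was lost without either 34 h library (0.139 and 0.129), without either 72 h library (0.0578 and 0.0573), in a fit of only 34 h and 50 h (0.130) and without the filter (0.0882).

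At 42 h the change of HESX1 was -1.56 ± 0.34 (limma adjusted p 0.0563; -1.61 in replicate 1, -1.51 in replicate 2). At 72 h it was -0.90 ± 0.34 against 34 h (0.0888) and 0.66 ± 0.34 against 42 h (0.226; 0.64 in replicate 1, 0.68 in replicate 2). Each of these contrasts passed once 1 of the 50 h libraries was left out, and those against 34 h also in a fit of the 2 time points only (0.0353 for 42 h, 0.0181 for 72 h). With 50 h replicate 1 or 50 h replicate 2 left out, the limma adjusted p-values were 0.00489 and 0.00590 for 42 h against 34 h, 0.00971 and 0.0112 for 72 h against 34 h, and 0.0416 and 0.0462 for 72 h against 42 h. By mean TPM HESX1 ran from 34 h over 72 h and 50 h down to 42 h, and no neighbours in that order differed beyond the threshold with all libraries in the fit. For 50 h and 42 h, the lowest of them, the log2 means stood in the other order, with -0.06 ± 0.34 at 50 h against 42 h (limma adjusted p 0.984).

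LHX2 (ENSG00000106689, chromosome 9, 124001670 to 124033301, plus strand, protein coding), a LIM homeobox factor needed for eye field and cortex in mouse, went the opposite way and only for a time. LHX2 had 0.785 and 0.176 at 34 h, 3.5 and 2.82 at 42 h, 3.0 and 2.57 at 50 h, and at 72 h 0.854 and 0.631 TPM. All 4 libraries of 42 h and 50 h lay above all 4 of 34 h and 72 h, and 34 h and 72 h overlapped. The mean rose from 0.481 ± 0.430 TPM (SD, n = 2) to 3.16 ± 0.484 at 42 h, 6.57-fold (17.9-fold without replicate 1 and 4.03-fold without replicate 2 of 34 h), and was 0.743 ± 0.158 TPM at 72 h, 4.25-fold below 42 h. On the log2 scale LHX2 rose by 1.52 ± 0.27 at 42 h (limma adjusted p 0.0257) and was 1.38 ± 0.27 above 34 h at 50 h (0.0220). It fell by 1.25 ± 0.27 from 42 h to 72 h (limma adjusted p 0.0181; -1.28 in replicate 1, -1.23 in replicate 2) and by 1.12 ± 0.27 from 50 h to 72 h (0.0451; -1.11, -1.13). Between 72 h and 34 h the difference was 0.26 ± 0.27 (0.522). Since LHX2 passed the filter through its high libraries, these values describe it and are not independent of that choice; without the filter the adjusted p-values of limma were 0.0537 (42 h) and 0.0414 (50 h) for the rises from 34 h, and 0.0322 and 0.0713 for 72 h against 42 h and 50 h.

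The calls of LHX2 were close to the threshold. At 42 h against 34 h the call was lost in 8 of 15 alternatives, with limma adjusted p-values from 0.0194 to 0.160 over all of them, among them the leaving out of replicate 2 at 34 h (0.160), of either 42 h library (0.153 and 0.106) and of either 72 h library (0.0513 and 0.0510). At 50 h against 34 h it was lost in 4 of 15, without replicate 2 at 34 h (0.128), without either 50 h library (0.112 and 0.0717) and in a fit of only these time points (0.0853). For 72 h against 42 h it was lost without any 1 library of these time points (0.0610 to 0.0970) and at a pseudocount of 0.1 (0.0524), and for 72 h against 50 h in 10 of 15 (up to 0.188). The direction of these 4 changes was the same in every alternative.

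**Figure D2:**
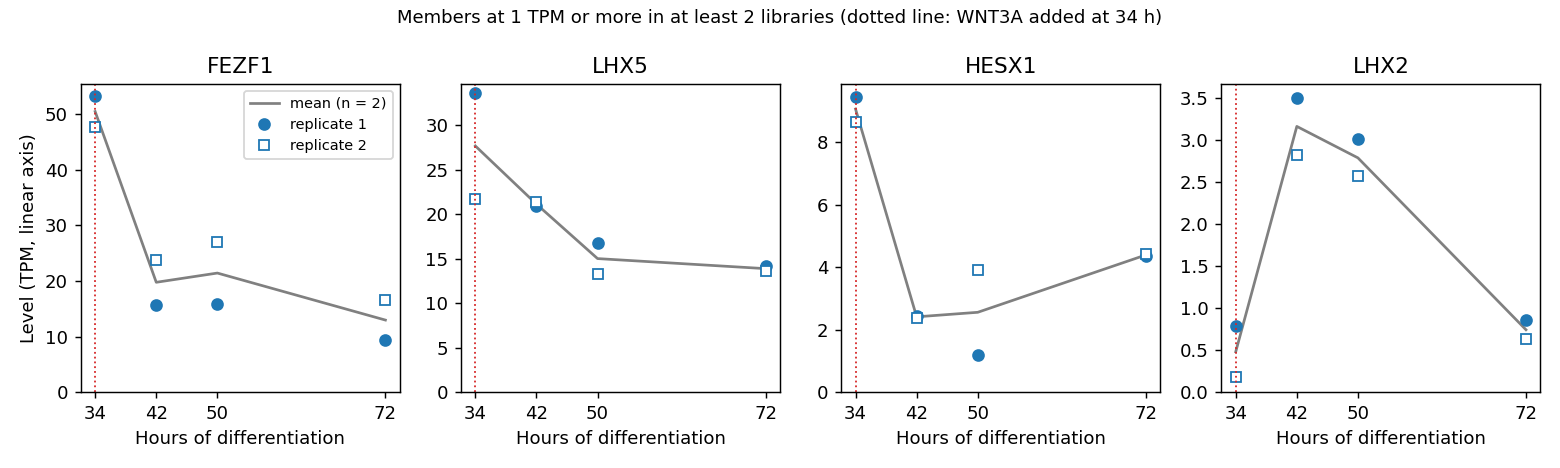
Level in TPM (vertical axis, linear, from 0) against hours of differentiation for FEZF1, LHX5, HESX1 and LHX2, with both replicates as symbols and their mean as a line. FEZF1, LHX5 and HESX1 have their highest mean at 34 h, HESX1 is higher at 72 h than at 42 h, and LHX2 is high at 42 h and 50 h.

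Counted over the comparisons, 1 of the 4 tested genes was called at 42 h against 34 h, LHX2, where 2.58% of all 14908 tested genes were called, 1.78% raised and 0.792% lowered. At 50 h 1 gene was raised, LHX2, and 1 was lowered, HESX1, against 6.26% of tested genes called in either direction, 3.52% raised and 2.74% lowered. At 72 h 2 were lowered, FEZF1 and LHX5, against 24.0% called in either direction, 12.7% raised and 11.3% lowered. Between 42 h and 72 h LHX2 was lowered, with 15.8% of tested genes called, 7.71% raised and 8.09% lowered. Between 50 h and 72 h LHX2 was lowered again, with 7.33% called, 2.92% raised and 4.41% lowered. None of the 4 was called by limma between 42 h and 50 h, where 0.0939% of tested genes were called, 0.0604% raised and 0.0335% lowered, and 1, LHX5, had an unadjusted p under 0.05 there (0.0480). An F-test for any difference among the time points passed for all 4 of them (limma adjusted p from 0.0107 for LHX2 to 0.0411 for LHX5), as it did for 17.4% of tested genes. LHX2 kept this call in all 14 alternatives that tested it, while FEZF1 lost it in 4 of 15, HESX1 in 8 of 14 and LHX5 in 9 of 15. Against 34 h the 4 genes had median log2 changes of -0.84 (42 h), -1.03 (50 h) and -0.91 (72 h), beside medians of 0.010, 0.045 and 0.061 over all tested genes. The counts and medians include LHX2, which passed the filter through its high libraries, and are given as a description. The comparisons with 34 h share the same 2 libraries, and they do not give independent evidence.

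**Figure D3:**
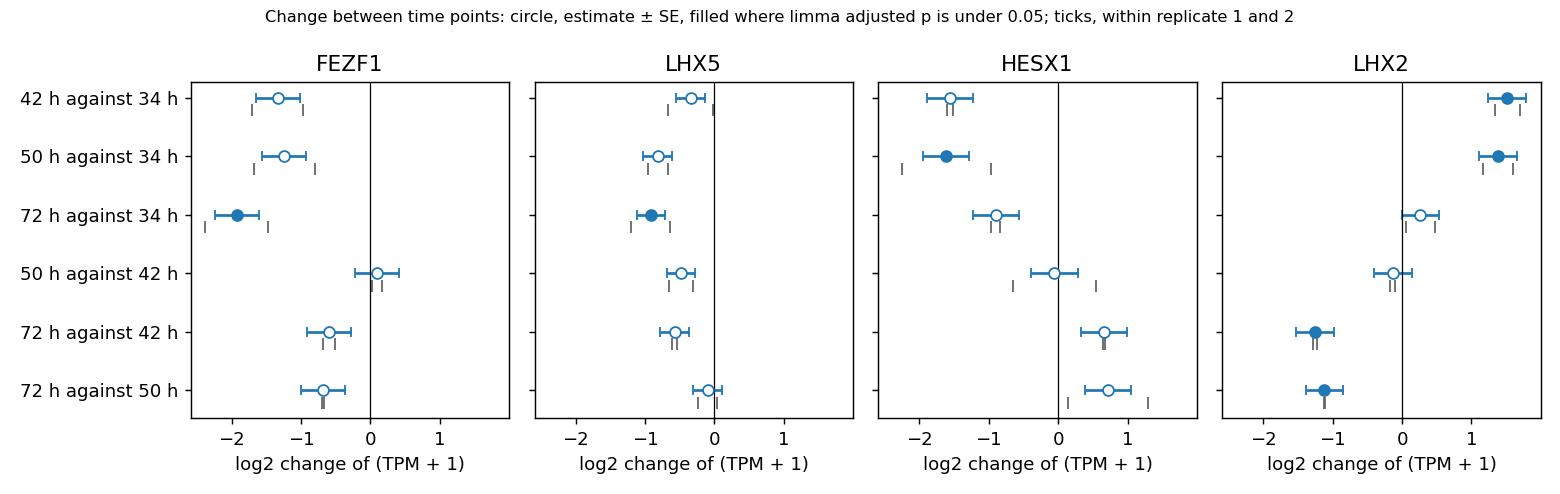
Log2 change of TPM + 1 (horizontal axis) for each pair of time points (rows) in FEZF1, LHX5, HESX1 and LHX2, as the estimate with its SE, filled where the limma adjusted p was under 0.05, with the change within each replicate as ticks. Estimates against 34 h lie below 0 for FEZF1, LHX5 and HESX1 and above 0 for LHX2, and the 2 ticks of HESX1 are farthest apart in the rows with 50 h.

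The share of each gene in the summed TPM of the 9 varied between libraries, and a share can rise while the level does not. FEZF1 made up 54.3% and 60.4% at 34 h, 36.6% and 46.7% at 42 h, 42.6% and 57.5% at 50 h, then 32.3% and 46.7% by 72 h, so the 34 h and 50 h libraries overlapped. HESX1 made up 9.65% and 11% at 34 h, from 3.19% to 8.38% in the 42 h and 50 h libraries, and 15.0% and 12.5% by 72 h. The share of LHX5 lay between 27.5% and 48.8%, with 34.3% and 27.5% at 34 h. LHX2 made up at most 0.800% at 34 h and between 5.48% and 8.17% at 42 h and 50 h. Over the 8 libraries HESX1 and LHX2 ran in opposite directions (Pearson r -0.834 on the log2 scale), while LHX5 and FEZF1 had an r of 0.690 and HESX1 and FEZF1 of 0.664. These are descriptions over 8 libraries that share time points, with no test.

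Of 24 other regulators of forebrain and eye, 6 passed the filter, and OTX2 was by far the most abundant. OTX2, the homeobox factor of forebrain and midbrain, had 168 and 151 at 34 h, 40.3 and 48.8 at 42 h, 33.0 and 50.5 at 50 h, and at 72 h 31.8 and 38.8 TPM, and it fell at each later time against 34 h by 1.82, 1.94 and 2.15 in log2 units (limma adjusted p 0.00256, 0.00110 and 0.000218), calls that held in all 16 alternatives. As with FEZF1, replicate 1 was the lower one at 42, 50 and 72 h. EMX1, a cortical homeobox factor and relative of EMX2, had 9.77 and 8.80 at 34 h, 9.94 and 13.3 at 42 h, 5.12 and 3.73 at 50 h, and at 72 h 0.172 and 1.55 TPM. EMX1 fell by 2.57 ± 0.35 from 34 h to 72 h (limma adjusted p 0.00143), while EMX2 was listed at 0 throughout.

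FOXD1, a forkhead factor of the temporal retina and diencephalon, was also highest at 42 h and 50 h. FOXD1 had 0.734 and 0.725 at 34 h, 5.27 and 2.77 at 42 h, 4.19 and 4.05 at 50 h, and at 72 h 1.51 and 1.68 TPM, and it was raised at 42 h (1.49 ± 0.26, limma adjusted p 0.0248, lost in 7 of 15 alternatives) and at 50 h (1.57 ± 0.26, 0.0113, lost in 4 of 15). PAX6, a paired box factor of eye and neural tube, stayed under 0.597 TPM through 50 h and had 4.01 and 3.59 TPM at 72 h (2.06 ± 0.27 against 34 h, limma adjusted p 0.00125). VAX2, a ventral eye homeobox factor, reached 1.69 and 1.94 TPM at 72 h from 0.112 and 0.5 TPM (1.12 ± 0.32, 0.0386, lost in 5 of 15 alternatives). FOXD1, PAX6 and VAX2 were under 1 TPM in both 34 h libraries and entered the test through later ones, PAX6 through those of 72 h alone. Without the filter PAX6 kept its call (limma adjusted p 0.00171), as did FOXD1 at 50 h (0.0351), while FOXD1 at 42 h (0.0718) and VAX2 (0.0539) did not. OTX1 had at most 1.36 TPM and no call. The other 18 stayed below the filter. DMRTA2 and TBX5 were listed at 0 in all libraries. In the 24 genes, 1 rose and 1 fell at 42 h, the same numbers at 50 h, and 2 rose and 2 fell at 72 h, with medians of 0.50, 0.44 and 0.60 over the 6 tested. The shares called over all tested genes were 2.58%, 6.26% and 24.0%, and the medians 0.010, 0.045 and 0.061.

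Among 5 genes of more caudal neural tissue, 3 were raised at 42 h, 4 at 50 h and, by 72 h, 3, and none was lowered against 34 h, with medians of 1.18, 1.20 and 0.64. Over all tested genes 1.78%, 3.52% and 12.7% were raised, with medians of 0.010, 0.045 and 0.061. GBX2, the homeobox factor of the anterior hindbrain, went from 1.31 and 1.21 TPM to 102 and 85.9 TPM at 42 h (5.38 ± 0.16, limma adjusted p 1.929e-06). IRX1, an Iroquois factor that FEZF genes repress in the diencephalon of mouse, had 15.1 and 11.8 at 34 h, 34.2 and 29.4 TPM at 42 h and at 72 h 104 and 121 TPM (2.98 ± 0.17 against 34 h). IRX3, which borders SIX3 expression in the neural plate, had 3.46 and 2.61 at 34 h, 8.92 and 8.64 at 42 h, 6.23 and 6.99 at 50 h, and at 72 h 4.07 and 3.52 TPM. IRX3 rose by 1.29 ± 0.18 at 42 h (limma adjusted p 0.00828, lost in 4 of 16 alternatives) and fell by 1.03 ± 0.18 from 42 h to 72 h (0.00751, lost without replicate 2 at 72 h at 0.0552). Its Pearson r with LHX2 over the 8 libraries was 0.970.

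**Figure D4:**
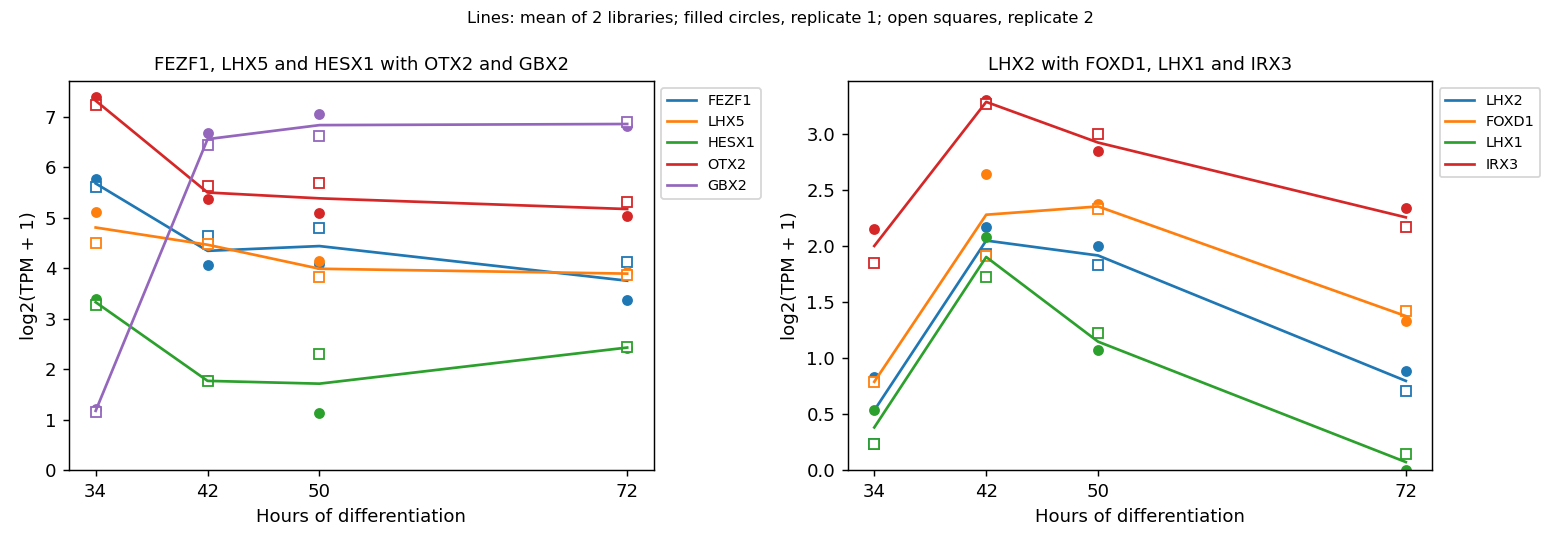
Log2(TPM + 1) against hours of differentiation, with both replicates as symbols and their mean as a line. On the left FEZF1, LHX5, HESX1 and OTX2 have their highest means at 34 h while GBX2 is high from 42 h on, and on the right LHX2, FOXD1, LHX1 and IRX3 are higher at 42 h than at 34 h and 72 h.

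Among family relatives outside the forebrain set, the LIM genes LHX1 and LHX4 also had their higher levels at 42 h and 50 h. LHX1, a LIM homeobox factor of the early embryo's organizer tissues and the close relative of LHX5, had 0.448 and 0.174 at 34 h, 3.24 and 2.31 at 42 h, 1.11 and 1.33 at 50 h, and was listed at 0 in 1 of the 72 h libraries with 0.107 TPM in the other. It rose by 1.52 ± 0.27 at 42 h (limma adjusted p 0.0236, lost in 6 of 15 alternatives) and fell by 1.83 ± 0.27 from 42 h to 72 h (0.00325). LHX1 reached 1 TPM in the 42 h and 50 h libraries alone and so entered the test through them; without the filter these p-values were 0.0216 and 0.00408 (limma, adjusted). LHX4, a LIM homeobox factor of pituitary and motor neurons, had 4.67 and 4.18 at 34 h, 8.74 and 8.23 at 42 h, 8.73 and 9.45 at 50 h, then 2.08 and 2.78 TPM. LHX4 was raised at 50 h (0.90 ± 0.17, limma adjusted p 0.0214), not called at 42 h (0.81 ± 0.17, 0.0571), and fell by 1.48 from 42 h to 72 h (0.00119) to a level below that of 34 h (-0.67 ± 0.17, 0.0267). Of 9 such relatives 5 were tested, and 1 was raised at 42 h, 1 at 50 h, and 1 raised and 1 lowered at 72 h against 34 h, where 2.58%, 6.26% and 24.0% of all tested genes were called. LHX1 and TBXT also mark early mesoderm, and the summed level of 6 mesoderm markers was 1.76 to 1.81 at 34 h, 11.2 to 15.4 at 42 h, 9.86 to 12.4 at 50 h, and by 72 h 3.07 to 3.39 TPM. Of these markers 3 were tested and 1 was raised at 42 h, 2 at 50 h and none at 72 h, against 1.78%, 3.52% and 12.7% of all tested genes. TBXT carried most of this sum at 42 h (11.4 and 7.92 TPM) and 50 h (9.62 and 6.83 TPM). MIXL1 passed the filter through the 42 h and 50 h libraries and EOMES through those of 42 h, where they were high, while MSGN1 was listed at 0 in every library and MESP1 did not exceed 0.264 TPM. Whether the brief rise of LHX2 has a part from such cells was not tested.

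HESX1 and the pluripotency genes could be compared in the same libraries, since HESX1 is also a gene of pluripotent cells. The summed level of 6 pluripotency markers was 2425 to 2461 at 34 h, 1738 to 1841 at 42 h, 1332 to 1438 at 50 h, and by 72 h 619 to 636 TPM, and none of the 6 was listed at 0. At 42 h 1 of the 6 was lowered, at 50 h 4 and at 72 h 4, with none raised against 34 h, where 0.792%, 2.74% and 11.3% of all tested genes were lowered. PRDM14, a pluripotency factor singled out after its values were seen, had 23.7 and 20.4 at 34 h, 7.28 and 8.56 at 42 h, 11.9 and 9.64 at 50 h, and at 72 h 28.8 and 24.5 TPM. It was lowered at 42 h (limma adjusted p 0.00369) and raised from 42 h to 72 h (0.000564). From 42 h to 72 h PRDM14 was the 1 marker of the 6 that was raised, and the other 5 were lowered. Over all tested genes 7.71% were raised and 8.09% lowered in that comparison. Markers of the anterior placode, which also expresses SIX3 and HESX1, summed to between 4.44 and 7.31 TPM in all libraries, and 5 of the 7 stayed under 1 TPM. Endoderm markers, with SOX17 listed at 0 in every library, summed to 12.2 to 13.6 TPM at 34 h and 0.598 to 0.866 TPM at 72 h, nearly all of it FOXA2 (11.9 and 13.4 TPM at 34 h), with GATA4 and GATA6 at or under 0.356 TPM. Neural progenitor markers summed to 381 to 400 TPM in the 34 h libraries, 354 to 392 TPM in those of 42 h, 455 to 512 TPM in those of 50 h and 691 to 741 TPM in those of 72 h. Against 34 h 1, 2 and 5 of the 6 were raised, beside 1.78%, 3.52% and 12.7% of all tested genes. Neural crest markers summed to 7.02 to 8.39 TPM in the 34 h libraries and 12.4 to 14.1 TPM in those of 72 h. In between the sum was lower, with 4.14 to 5.99 TPM at 42 h and 5.63 to 6.32 TPM at 50 h. These markers did not move together. Of the 4 tested, limma called 2 up by 72 h, SNAI2 and PAX3, beside 12.7% of all tested genes. It called 1 down, FOXD3, beside 11.3%. FOXD3 had a mean of 4.565 TPM at 34 h and was listed at 0 in both 72 h libraries, while SOX10 had no call. The part of these cell states in the changes of HESX1, LHX5 and FEZF1 was not tested.

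Genes of proteins that work with the factors were mostly expressed. SIX3, SIX6 and HESX1 repress through Groucho corepressors of the TLE family, and LIM homeobox factors act with LDB and SSBP proteins. Of 13 such cofactors 12 were tested, and 2 were raised and none lowered at 42 h, 2 raised and 1 lowered at 50 h, and 7 raised and 3 lowered at 72 h, with medians of -0.02, 0.01 and 0.51. Of all tested genes 2.58%, 6.26% and 24.0% were called in these comparisons, with medians of 0.010, 0.045 and 0.061. TLE3 started at 43.7 and 45.4 TPM (34 h) and had 89.7 and 98.1 TPM by 42 h (1.06 ± 0.17, limma adjusted p 0.0152, lost in 5 of 16 alternatives). TLE2 moved the other way, from 17.5 and 11 TPM at 34 h to 2.32 and 3.37 TPM at 72 h (-1.97 ± 0.30, 0.00269). DACH1, a corepressor partner of SIX6, started at 0.314 and 0.339 TPM (34 h) and had 2.84 and 2.57 TPM by 42 h (1.48 ± 0.23, 0.0140, lost in 5 of 15; 0.0250 without the filter, which it passed through the later libraries). LDB1 ranged from 69.9 to 109 TPM over the libraries and was raised at 72 h (0.53 ± 0.13, limma adjusted p 0.0188). SSBP4 started at 26.0 and 23.7 TPM (34 h) and had by 72 h 44.1 and 51.1 TPM (0.91 ± 0.24, 0.0276, lost in 6 of 16).

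Of 4 WNT genes and antagonists that are reported targets of the factors in animal models, 2 were tested, and none was raised against 34 h while 1 was lowered at 42 h, 1 at 50 h and both at 72 h, where 0.792%, 2.74% and 11.3% of all tested genes were lowered. WNT1 and WNT8B, which SIX3 represses in mouse, were below the filter, with at most 0.382 and 0.271 TPM, and WNT1 was listed at 0 in both 34 h and both 50 h libraries. SFRP1, a secreted WNT antagonist that LHX5 activates in zebrafish, had 402 and 350 at 34 h, 268 and 266 at 42 h, 234 and 234 at 50 h, and at 72 h 309 and 266 TPM. SFRP1 fell by 0.68 ± 0.10 at 50 h (limma adjusted p 0.00605, and 0.0505 without replicate 1 at 34 h), and its call at 42 h (-0.49 ± 0.10, 0.0458) was lost in 12 of 16 alternatives. At 72 h SFRP1 was 0.39 ± 0.10 below 34 h (limma adjusted p 0.0254). SFRP5, a second such antagonist, had 3.09 and 2.65 at 34 h, 4.16 and 6.21 at 42 h, and at 72 h 0.154 and 0.729 TPM, a fall of 1.45 ± 0.27 from 34 h to 72 h (0.00636).

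The genes whose levels ran most like each of the 4 were taken as the 3 with the highest Pearson correlation over the 8 libraries, among tested genes with a mean of at least 5 TPM at their highest time point. For FEZF1 these were EEF1A2 (r 0.988), a translation elongation factor, SELENOP (0.979) and OSBP (0.974). EEF1A2 started at 11.9 and 11.9 TPM (34 h) and had by 72 h 7.21 and 7.97 TPM, with replicate 1 below replicate 2 at 42, 50 and 72 h as in FEZF1. For LHX5 they were INSR (0.972), the insulin receptor, HS6ST2 (0.972), a heparan sulfate sulfotransferase, and SALL2 (0.968), a zinc finger factor. HS6ST2 started at 10.7 and 7.89 TPM (34 h) and had by 72 h 4.43 and 3.86 TPM.

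For HESX1 they were CKMT1B (0.964), SHISA2 (0.962) and ME3 (0.947). CKMT1B has a near-identical copy, CKMT1A, so its level is uncertain. SHISA2, an antagonist of WNT and FGF receptors, had 14.1 and 16.0 at 34 h, 4.45 and 5.12 at 42 h, 3.6 and 7.42 at 50 h, and at 72 h 8.84 and 11.4 TPM, with replicate 1 the lower one at every time point, where HESX1 had it lower at 50 h and 72 h and higher at 34 h and 42 h. For LHX2 they were SOX9 (0.980), an SRY-box factor, FGF18 (0.974), a fibroblast growth factor, and DSP (0.974), the desmosomal protein desmoplakin. SOX9 had 15.0 and 13.5 at 34 h, 27.9 and 27.5 at 42 h, 26.3 and 27.7 at 50 h, and at 72 h 16.1 and 16.0 TPM. FGF18 started at 0.664 and 0.435 TPM (34 h) and had 8.53 and 5.72 TPM by 42 h. The 8 libraries share 4 time points, and the correlations are descriptions with no test.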

How the data were processed

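Poly(A) RNA of ESI017 cells was sequenced in 8 libraries, 2 at each of 34, 42, 50 and 72 h, grouped by their titles. The authors deposited 1 table of TPM per Ensembl gene with 37951 rows. Salmon 1.9.0 and GRCh38 are named in the submitters' processing notes, and the annotation, options and filters are not given in the sources used here. TPM keeps no read number, so no counting interval was computed. Rows were summed by symbol. The genes, the lists and the comparisons were chosen with earlier results of these data known.

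The 14908 symbols that reached 1 TPM in 2 or more libraries were fitted on log2(TPM + 1) with limma 3.58.1 in R 4.3.3, with 1 mean per time point over all 8 libraries and a variance following the mean level. The limma p-values are two-sided and were adjusted by the Benjamini-Hochberg method across all 14908, with calls under 0.05. With 2 libraries a group no exact permutation test of a single pair of time points can reach that threshold. The fit was tested on simulated data with changes added at 42 h alone. These were put into genes of higher mean level than LHX2, so genes as low as LHX2 were not covered. The labels call the replicate number a batch, which pairs the libraries by label. The main fit leaves this pairing out, and an alternative fit has it as a block. Differences between replicates correlated at 0.0949 to 0.195 among 34, 42 and 50 h, and at -0.104 to -0.0445 between these and 72 h. The design text calls the second set an independent biological replicate. Named genes are the 9 genes, the genes of the lists and the 3 most similar genes of each tested one, and PRDM14, TBXT and CKMT1A come from the marker lists or as background. The lists cover other forebrain and eye regulators, cofactors, WNT genes and antagonists, caudal genes, relatives, neighbouring antisense genes (not analysed here) and cell type markers. Promoter windows come from RefSeq and positions from GENCODE release 29. No count model was fitted. In all 16 alternatives were run: another pseudocount, no filter, a stricter filter, Ensembl rows apart, rescaling by trimmed means of log ratios (TMM), no variance trend, fits of 2 time points only, a block for the replicate number, and each library left out. Neuron markers summed to 183 to 318 TPM over the libraries.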

Additional observations from a re-analysis of the deposited data

How the results depend on the processing

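The count of called genes among the 9 depended on the processing. At a pseudocount of 0.1 it went from 1 to 0 for 42 h against 34 h and for 72 h against either 42 h or 50 h. With a mean of at least 5 TPM, which removed HESX1 and LHX2, these 3 also went to 0, and the count at any time from 4 to 2, while the 2 called at 50 h against 34 h were FEZF1 and LHX5 in place of HESX1 and LHX2. Without the filter on low values the count was 0 at 42 h against 34 h, 1 at 50 h against 34 h, 0 at 72 h against 50 h and 1 at any time, and the 3 called at 72 h against 34 h included FEZF2. Without a mean trend in the variance 2 changed at any time. With the compared time points alone the count was 0 at 50 h against 34 h, 2 at 72 h against 42 h and 0 at 72 h against 50 h, while the 1 called at 42 h against 34 h was HESX1 in place of LHX2 and those at 72 h against 34 h went from 2 to 3 with HESX1 added. TMM rescaling took the count at 50 h against 34 h from 2 to 3, and with Ensembl rows apart the count was 0 at 72 h against 50 h. With the replicate block, which pairs the libraries by their batch label, the counts were 2 at 42 h against 34 h and 4 at 50 h against 34 h, and no other count moved.

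Leaving out 1 library at a time gave 0 to 2 called genes at 42 h against 34 h, 1 to 2 at 50 h, 1 to 3 at 72 h, 0 to 2 at 72 h against 42 h, 0 to 1 at 72 h against 50 h and 1 to 4 at any time, where the remaining library of that time point was assumed to vary like the others. Between 42 h and 50 h the count was 0 in all 16 alternatives. Of 372 recomputed changes of FEZF1, LHX5, HESX1 and LHX2, 312 kept their direction and side of the threshold, 36 lost a call, 19 gained one and 5 changed sign. The sign changes were in differences that were not called. Leaving out 1 library at a time, FEZF1 at 50 h against 42 h ranged from -0.268 to 0.457, with -0.192 without replicate 1 at 42 h. HESX1 in the same comparison ranged from -0.640 to 0.530, LHX2 at 72 h against 34 h from -0.038 to 0.564 and LHX5 at 72 h against 50 h from -0.258 to 0.064. Of 360 recomputed changes of other named genes, 293 were kept and 67 lost the call. The causes were not tested, and the F-test was not run with compared time points alone.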
